A study of Mus musculus with 4 samples.

Results

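The data describe 10 genes of MHC class I presentation in Ly6G+ cells of the bone marrow, compared between lal-/- and lal+/+ mice. The genes were chosen by function: the class I chains H2-K1, H2-D1 and B2m, the peptide transport and loading genes Tap1, Tap2 and Tapbp, the trimming peptidase Erap1, and the inducible proteasome subunits Psmb8, Psmb9 and Psmb10. 8 of the 10 genes have a probe set of their own, 1 each, among the 35557 probe sets of the Affymetrix Mouse Gene 1.0 ST array, and 19938 genes in all do. H2-K1 and H2-D1 are read only by probe sets that name both of them together with a further locus, so these are given apart.

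The study asked how loss of lysosomal acid lipase (LAL, the enzyme that hydrolyses cholesteryl esters and triglycerides in lysosomes, encoded by Lipa) alters myeloid cells. 2 arrays held RNA from lal-/- mice, labelled as LAL knockout, and 2 held RNA from lal+/+ mice, labelled as wild type. All mice were 5 months old and back-crossed to FVB/N, and no further allele or treatment was named for either genotype. The labels describe the cells as myeloid derived suppressor cells positive for CD11b and Gr-1, and the methods describe selection with an antibody to Ly6G and magnetic beads. The methods count more mice than there are arrays of a genotype and do not say whether an array held RNA of 1 mouse or of pooled mice. The p-values therefore measure the spread between these 4 arrays alone, and that spread may be technical.

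MHC class I molecules display peptides from inside the cell to CD8+ T cells. The proteasome cuts cytosolic proteins into peptides, the TAP1 and TAP2 transporter carries them into the endoplasmic reticulum, ERAP1 trims their amino ends, and tapasin (Tapbp) holds the empty class I heavy chain and beta-2-microglobulin (B2m) at the transporter until a peptide binds. The constitutive proteasome carries the catalytic subunits Psmb5, Psmb6 and Psmb7. In cells exposed to interferon gamma, and in many cells of the blood lineages, Psmb8 takes the place of Psmb5, Psmb9 that of Psmb6 and Psmb10 that of Psmb7, which gives the immunoproteasome.

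Many of these genes lie in the H2 complex on chromosome 17 and are known to respond to interferons and to NF-kappaB, so the promoter letters that bear on this are shown with the motifs found in them in capitals. RefSeq start sites on build GRCm38.p6, which is a C57BL/6J sequence and not FVB/N, gave a window for 9 of the 10 genes, and the gene positions given with the results are those of the same build. In H2-K1 (chr17:34000418-34000472, minus strand) and H2-D1 (chr17:35262909-35262963, plus strand) the capitals mark overlapping matches to an NF-kappaB site on both strands and then, on the other strand, a match to a looser interferon-stimulated response element (ISRE) core.
H2-K1: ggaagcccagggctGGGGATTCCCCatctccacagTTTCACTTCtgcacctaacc
H2-D1: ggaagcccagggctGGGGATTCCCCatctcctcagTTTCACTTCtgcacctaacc
These stretches of 55 bases were equal at 54 positions (98.2%). In B2m (chr2:122147537-122147581, plus strand) the capitals mark an ISRE core and, on the other strand, an NF-kappaB site.
B2m: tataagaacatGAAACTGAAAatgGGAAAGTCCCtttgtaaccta
In Psmb8 (chr17:34198085-34198119, plus strand) they mark an interferon gamma activated sequence (GAS) core.
Psmb8: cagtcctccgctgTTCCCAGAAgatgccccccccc
Psmb9 and Tap1 are read away from each other from starts 225 bases apart, and the whole stretch between them (chr17:34187331-34187555, plus strand) is shown with its GC box, the site bound by Sp1 and read here on the other strand, in capitals.
between Psmb9 and Tap1: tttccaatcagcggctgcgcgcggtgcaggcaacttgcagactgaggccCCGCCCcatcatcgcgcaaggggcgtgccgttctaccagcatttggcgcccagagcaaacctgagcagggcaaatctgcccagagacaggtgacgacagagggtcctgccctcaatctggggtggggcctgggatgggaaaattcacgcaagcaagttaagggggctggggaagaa

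The motifs were searched on both strands in the 250 bases before each start. The ISRE core was GAAANNGAAA, held by 2.98% of 32851 promoter windows and, among the members, by B2m. The core called looser here, GAANNGAAA, was added after the letters had been read, was held by 6.31% of windows and was found in H2-K1 and H2-D1. It is a shorter pattern with a different spacing and does not take in the matches of the ISRE core. B2m, which held the ISRE core, did not hold it. The GAS core TTCNNNGAA (7.02% of windows) was found in Psmb8. The NF-kappaB site was searched by its name (3.9% of windows) and was found in H2-K1, H2-D1 and B2m. The GC box GGGCGG, also added afterwards (32.7% of windows), was found in the shared stretch of Psmb9 and Tap1 and in Tapbp. Psmb10 and Erap1 held none of these letters in their windows, and Tap2 was not searched.

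None of the 8 genes with a probe set of their own passed the threshold that defines a change here, an adjusted p under 0.05 from limma and a fold of at least 2, in either direction. 10.8% of all genes passed it, 7.56% higher and 3.24% lower in lal-/- cells. 4 of the 8 had an unadjusted p under 0.05, Tap2 and Tapbp with higher and B2m and Psmb8 with lower values in lal-/- cells. Without the fold threshold Tap2 and Tapbp passed as higher, where 19.8% of all genes did, and 0 passed as lower, where 9.85% of all genes did. The median log2 fold change of the 8 was 0.00, beside 0.08 over all genes, and their median absolute log2 fold change was 0.31, beside 0.27. The 95% interval of the fold change lay within a 2-fold change on either side for 6 of the 8, all but Tap2 and Tapbp, as it did for 78.8% of all genes. The lal-/- and lal+/+ arrays did not overlap for 6 of the 8, 3 above and 3 below, where 65.7% of all genes showed no overlap.

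Larger fold changes were found in genes that work beside them. The constitutive catalytic subunits that the inducible ones replace were all higher in lal-/- cells, by 0.77 to 0.92 on the log2 scale. The genes of MHC class II presentation, which displays peptides from outside the cell, fell in 8 of 9 cases. The Lipa probe set itself, a check of the labels, read 7.37 and 7.49 in lal-/- cells, against 9.50 and 9.05 in lal+/+ cells.

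The RNA came from a selected population, and its markers differed between the genotypes. Ly6g, the antigen used for selection, read 12.91 and 12.84 in lal-/- cells, against 10.19 and 9.80 in lal+/+ cells, and 7 of 11 neutrophil markers rose while 1, Csf3r, fell. All 9 measured B cell markers fell, with a summed linear level of 668 to 713 on the lal-/- arrays, against 7910 to 8710 on the lal+/+ arrays. 8 of 11 monocyte and macrophage markers fell, with sums of 1910 to 1950 on the lal-/- arrays, against 7630 to 8260 on the lal+/+ arrays. 3 of 6 T cell markers fell (Cd3e, Cd3g and Cd2) and 1 rose (Cd3d), 2 of 5 plasma cell markers and 1 of 6 NK cell markers fell, and 0 of 6 dendritic cell, 0 of 4 erythroid and 0 of 4 endothelial markers passed. The part of these cell types in the levels of the class I genes was not tested, and in such bulk RNA fewer cells of a type and less RNA per cell cannot be told apart. The 8 class I genes together had a summed linear level of 10700 to 10800 on the lal-/- arrays, against 12400 to 12700 on the lal+/+ arrays. That gap lies in B2m, and the other 7 summed to 3970 and 3870 on the lal-/- arrays, against 3940 and 3570 on the lal+/+ arrays. The means of all 8 lay above the level of silent genes in both genotypes, although Tap1 lay below it on lal+/+ replicate 2. This level was taken as the 95th percentile of 1035 olfactory receptor probe sets (6.29 in lal-/- and 6.79 in lal+/+ cells).

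**Figure D1:**
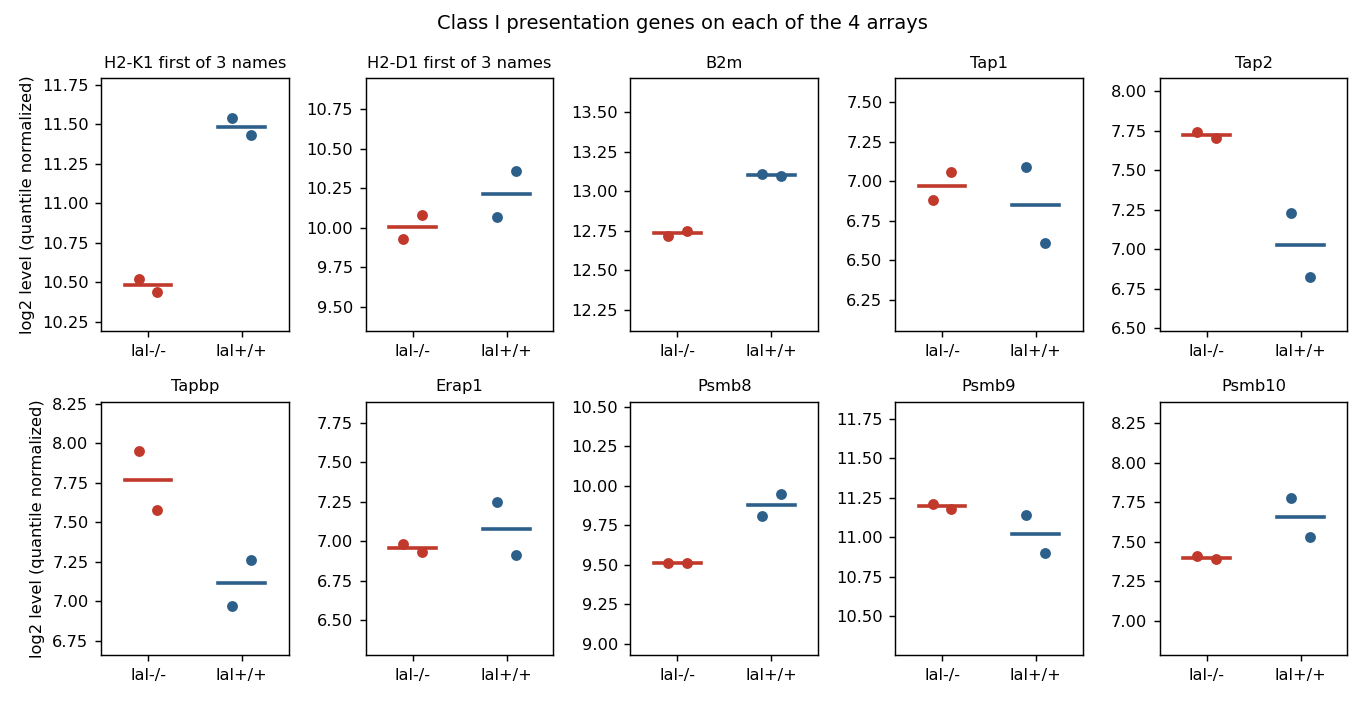
Quantile-normalized log2 level (y axis, each panel spanning the same range) on the 2 lal-/- arrays (red) and the 2 lal+/+ arrays (blue), for the 2 probe sets that name H2-K1 and H2-D1 with a further locus and for the 8 genes with a probe set of their own. Points are arrays and bars the mean of a genotype. The arrays of the genotypes overlap for the H2-D1-first probe set, Tap1 and Erap1.

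For H2-K1, H2-D1 and B2m, the class I chains among the 10 genes, the 1 probe set called lower in lal-/- cells names H2-K1 ahead of other loci. B2m (chr2:122147687-122153082), the light chain shared by every classical class I molecule, read 12.72 and 12.75 in lal-/- cells, against 13.11 and 13.10 in lal+/+ cells. Its lal-/- arrays both lay below the lal+/+ arrays, with means of 12.74 ± 0.02 and 13.10 ± 0.00 (SD, n = 2 arrays each). The log2 fold change was -0.37 (standard error 0.12, 95% interval -0.65 to -0.09), which missed the threshold by both its size and its adjusted p of 0.057 from limma. The probe set that lists H2-K1 ahead of the locus LOC547349 and H2-D1 read 10.52 and 10.44 in lal-/- cells, against 11.54 and 11.43 in lal+/+ cells. It fell by 1.01 on the log2 scale, or 2.01-fold (standard error 0.12, adjusted p = 0.00715 from limma over all probe sets, of which 12.7% were called). This call stood at the edge of the fold threshold. The value was -0.50 with a common median of the arrays (adjusted p = 0.0608) and -0.67 on the values as deposited (adjusted p = 0.021), and it was -0.96 without lal+/+ replicate 1 and -0.97 without lal-/- replicate 2, none of which was called. The probe set that lists H2-D1 ahead of the same locus and H2-K1 read 9.93 and 10.08 in lal-/- cells, against 10.07 and 10.36 in lal+/+ cells. The genotypes overlapped there, with a log2 fold change of -0.21 (adjusted p = 0.394 from limma) that became 0.46 with a common median and 0.28 on the values as deposited. How much of either probe set came from H2-K1 and how much from H2-D1 cannot be told apart.

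Transport and loading genes held the 2 highest fold changes of the 8 genes. Tap2 (chr17:34204479-34216321), the second chain of the transporter, read 7.74 and 7.70 in lal-/- cells, against 7.23 and 6.82 in lal+/+ cells. Both lal-/- arrays lay above both lal+/+ arrays, and the log2 fold change was 0.70, or 1.62-fold (standard error 0.16, 95% interval 0.31 to 1.08, adjusted p = 0.018 from limma). Tapbp (chr17:33919478-33929290), tapasin, read 7.95 and 7.58 in lal-/- cells, against 6.97 and 7.26 in lal+/+ cells. It was 1.57-fold higher in lal-/- cells without overlap of the arrays, a log2 fold change of 0.65 (standard error 0.17, 95% interval 0.24 to 1.06, adjusted p = 0.0294 from limma). Both therefore passed the adjusted p but stayed short of 2-fold. Tap2 had an adjusted p of 0.0726 without lal-/- replicate 1 and of 0.0616 without lal-/- replicate 2, and Tapbp one of 0.179 without lal-/- replicate 1 and of 0.089 without lal+/+ replicate 1. Tap1 (chr17:34187556-34197225), the partner chain of Tap2, read 6.88 and 7.06 in lal-/- cells, against 7.09 and 6.61 in lal+/+ cells. The arrays overlapped, and the log2 fold change of 0.12 (95% interval -0.31 to 0.55, adjusted p = 0.665 from limma) was smaller than the spread between the lal+/+ arrays. 2 further probe sets name Tapbp beside the ribosomal protein gene Rps3a1, and both gave lower values in lal-/- cells, opposite to the probe set of Tapbp alone. The first read 12.10 and 12.24 in lal-/- cells, against 12.68 and 12.62 in lal+/+ cells, and the other 11.81 and 11.97, against 12.52 and 12.50. Their log2 fold changes were -0.48 and -0.62 (adjusted p = 0.0536 and 0.0285 from limma over all probe sets), under the fold threshold, and they cannot be assigned to either gene.

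Of the trimming genes, Erap1 (chr13:74639573-74693205) read 6.98 and 6.93 in lal-/- cells, against 7.25 and 6.91 in lal+/+ cells. The arrays overlapped, with a log2 fold change of -0.13 (95% interval -0.49 to 0.23, adjusted p = 0.581 from limma) that was 0.01 with a common median. Among 9 measured cytosolic and endosomal peptidases that make or destroy class I peptides, 1 rose and 1 fell. Npepps, the puromycin-sensitive aminopeptidase, read 10.66 and 10.73 in lal-/- cells, against 9.33 and 9.33 in lal+/+ cells (log2 fold change 1.36, adjusted p = 0.000323 from limma). Lap3, the leucine aminopeptidase of the cytosol, read 6.37 and 6.17 in lal-/- cells, against 7.81 and 7.36 in lal+/+ cells (adjusted p = 0.00186 from limma). Its lal-/- mean lay below the level of silent genes, so the difference is a bound, at least 2.45-fold lower against that level. The arrays of the genotypes were apart for both. The median of the 9 was -0.04, but it was 0.33 with a common median and 0.16 on the values as deposited, with 2 of 9 called higher and 1 lower under both.

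None of the 3 inducible proteasome subunits passed the threshold, and their fold changes did not share a direction. Psmb8 (chr17:34198195-34201454), which has chymotrypsin-like activity, read 9.51 and 9.51 in lal-/- cells, against 9.81 and 9.95 in lal+/+ cells. Its lal-/- arrays lay below, by -0.37 on the log2 scale (standard error 0.12, 95% interval -0.67 to -0.08, adjusted p = 0.0623 from limma), but the value turned to 0.28 with a common median and to 0.10 on the values as deposited. Psmb9 (chr17:34182030-34187330), which replaces the caspase-like subunit, read 11.21 and 11.18 in lal-/- cells, against 11.14 and 10.90 in lal+/+ cells. Its lal-/- arrays lay just above, by 0.18 (95% interval -0.14 to 0.50, adjusted p = 0.367 from limma). It was 0.72 with a common median and 0.54 on the values as deposited, past the adjusted p there (0.00768 and 0.0289 from limma) and short of 2-fold. Psmb10 (chr8:105935728-105938392), which replaces the trypsin-like subunit and lies outside the H2 complex, read 7.41 and 7.39 in lal-/- cells, against 7.78 and 7.53 in lal+/+ cells. Its lal-/- arrays lay below, by -0.25 (95% interval -0.58 to 0.07, adjusted p = 0.214 from limma), and the value was 0.04 with a common median.

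The constitutive partners were higher in lal-/- cells. Psmb5, the partner of Psmb8, read 10.53 and 10.61 in lal-/- cells, against 9.81 and 9.68 in lal+/+ cells (log2 fold change 0.82, adjusted p = 0.00308 from limma). Psmb6, the partner of Psmb9, read 10.96 and 10.80 in lal-/- cells, against 9.92 and 9.99 in lal+/+ cells (log2 fold change 0.92, adjusted p = 0.00195 from limma). Psmb7, the partner of Psmb10, read 10.70 and 10.70 in lal-/- cells, against 9.96 and 9.90 in lal+/+ cells (log2 fold change 0.77, adjusted p = 0.00326 from limma). All 3 therefore passed the adjusted p but stayed short of 2-fold. They were called higher with a common median (1.41 to 1.56) and on the values as deposited (1.23 to 1.38), and Psmb6 was also called without lal-/- replicate 2, at 1.0.

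Each inducible subunit was then set against its constitutive partner within each array, a log2 difference that a constant shift of the array leaves as it is. Psmb8 minus Psmb5 was -1.02 and -1.10 on the lal-/- arrays, against 0.00 and 0.26 on the lal+/+ arrays. Psmb9 minus Psmb6 was 0.26 and 0.38 on the lal-/- arrays, against 1.21 and 0.91 on the lal+/+ arrays. Psmb10 minus Psmb7 was -3.29 and -3.32 on the lal-/- arrays, against -2.19 and -2.38 on the lal+/+ arrays. In all 3 pairs both lal-/- arrays lay below both lal+/+ arrays. Such separation is common with 2 against 2 arrays, as 65.7% of single genes showed no overlap in either direction. The share among differences of 2 genes was not computed. The differences between the genotypes were -1.19, -0.74 and -1.02 in this order of pairs, which are ratios 2.28-fold, 1.68-fold and 2.03-fold lower in lal-/- cells. The exact two-sided permutation test over the arrays gave p = 0.333 for each of the 3 pairs, also after Benjamini-Hochberg adjustment over them, which is the smallest p that 2 against 2 arrays can give, so this design cannot reach 0.05. With a common median and on the values as deposited the differences were -1.18, -0.84 and -1.38. These 2 scalings must give the same values, as they differ by a constant per array. Without overlap, leaving out 1 array could not change a sign. The differences then ranged between -1.32 and -1.06, -0.90 and -0.59, and -1.12 and -0.93. The comparison shows unequal change within a pair and does not say which of the subunits is at the higher level, since probe sets differ in brightness.

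**Figure D2:**
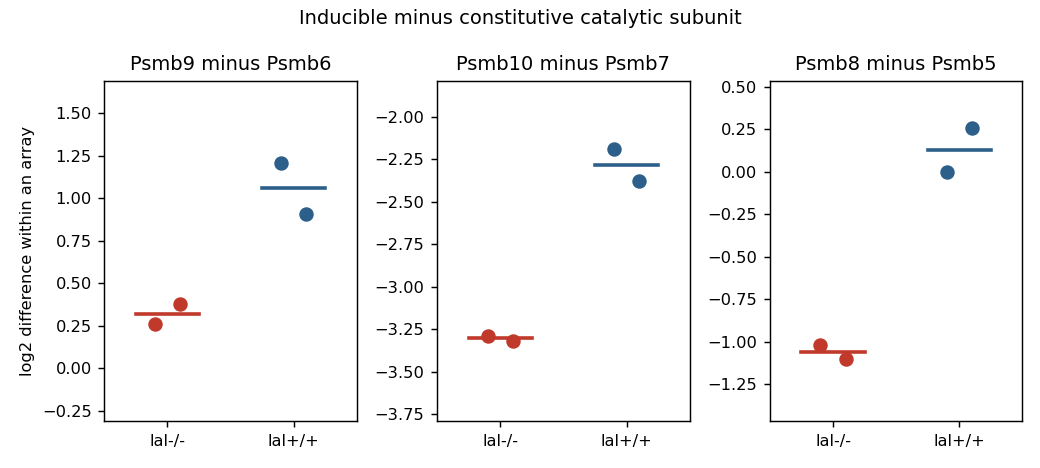
Log2 difference between the inducible and the constitutive subunit of each catalytic pair within an array (y axis), on the 2 lal-/- arrays (red) and the 2 lal+/+ arrays (blue), with the mean of a genotype as a bar. All panels span the same range, and in each pair both lal-/- arrays sit below both lal+/+ arrays. Among single genes 65.7% showed no overlap in either direction.

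Other genes of the proteasome core were also higher in lal-/- cells. Of the 11 other subunits of the 20S core, 2 were called higher and 0 lower, 9 were higher without the fold threshold, and all 11 fold changes were above 0, with a median of 0.83. Psmb3, a non-catalytic subunit of the beta ring, read 10.98 and 10.90 in lal-/- cells, against 9.47 and 9.43 in lal+/+ cells (log2 fold change 1.49, adjusted p = 0.000243 from limma), with 2.14 for the mean of its 2 probe sets. Psmb1, of the same ring, read 10.49 and 10.52 in lal-/- cells, against 9.37 and 9.42 in lal+/+ cells (log2 fold change 1.11, adjusted p = 0.000724 from limma). The count of core subunits called higher depended on the scaling, 9 of 11 with a common median and 7 of 11 on the values as deposited. Of 9 proteasome activators and assembly factors, 1 was called higher and 0 lower, with a median of 0.29. With a common median 4 of 9 were called higher (median 0.76), and on the values as deposited 2 of 9 (median 0.58). The gene called after quantile normalization was Psmg3, an assembly chaperone, at 7.37 and 7.62 in lal-/- cells, against 6.49 and 6.49 in lal+/+ cells (adjusted p = 0.00191 from limma). Its lal+/+ mean lay below the level of silent genes, against which it was at least 1.64-fold higher. Its fitted log2 fold change of 1.0 was 0.87 without lal-/- replicate 2 and 0.98 on the values as deposited, and it was not called in either. The PA28 activator, which is induced by interferon gamma, has the chains Psme1 and Psme2. Psme1 read 10.72 and 10.73 in lal-/- cells, against 10.71 and 10.67 in lal+/+ cells (log2 fold change 0.03, adjusted p = 0.869 from limma), but it was 0.63 with a common median (adjusted p = 0.007) and 0.45 on the values as deposited (adjusted p = 0.0323). Psme2 read 9.68 and 9.86 in lal-/- cells, against 9.26 and 8.88 in lal+/+ cells (log2 fold change 0.71, adjusted p = 0.0174 from limma). This was under the fold threshold, and it was called higher with a common median (1.33, adjusted p = 0.000415) and on the values as deposited (1.15, adjusted p = 0.00137). A probe set that it shares with Psme2b gave 0.17 (adjusted p = 0.456 from limma).

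Other class I chains of the H2 complex were mostly near or under the level of silent genes. Of 20 with a probe set of their own, 12 lay below it in lal-/- cells and 18 in lal+/+ cells. These 2 counts cannot be compared, since the level itself was 6.29 in lal-/- and 6.79 in lal+/+ cells. H2-M10.2, for example, counted as below only in lal+/+ cells, with means of 6.44 in lal-/- and 6.67 in lal+/+ cells. The median log2 fold change of the 20 was 0.04, and 0 were called higher and 1 lower. H2-M3, a non-classical chain that presents N-formylated peptides, read 6.95 and 7.16 in lal-/- cells, against 8.36 and 8.50 in lal+/+ cells, and fell by 1.38 on the log2 scale (adjusted p = 0.00051 from limma). Among probe sets shared by several of these genes, that of H2-Q6 and H2-Q8 read 7.08 and 7.76 in lal-/- cells, against 8.73 and 9.16 in lal+/+ cells (log2 fold change -1.53, adjusted p = 0.023 from limma over all probe sets). That of H2-T9, H2-T22 and H2-T10 read 7.66 and 7.15 in lal-/- cells, against 6.20 and 6.0 in lal+/+ cells (adjusted p = 0.0155 from limma). Its lal+/+ mean lay below the level of silent genes, against which it was at least 1.53-fold higher. These 2 probe sets thus went opposite ways, and neither was called without lal-/- replicate 1 (adjusted p = 0.0681 and 0.0552) or without lal+/+ replicate 2 (adjusted p = 0.0906 and 0.0689). H2-T23, which codes for Qa-1, the ligand of NKG2A receptors, was read only together with H2-T-ps, at 7.67 and 7.71 in lal-/- cells, against 7.18 and 7.67 in lal+/+ cells, with no call (0.26, adjusted p = 0.401 from limma). Of 6 class I-like chains coded elsewhere in the genome, such as Mr1 and Cd1d1, 0 were called, with a median of -0.31. Most of these values are near the floor, as 4 of the 6 lay below the level of silent genes in lal-/- cells and 5 in lal+/+ cells. Mr1 lay below it in both genotypes and Cd1d1 in lal+/+ cells.

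The folding helpers of class I loading in the endoplasmic reticulum included 9 measured genes, of which 0 passed in each direction after quantile normalization, with a median of 0.28. With a common median 1 of 9 was called higher (median 0.59), and on the values as deposited 1 of 9 (median 0.41). Calr, the chaperone calreticulin of the loading complex, read 9.05 and 9.09 in lal-/- cells, against 9.10 and 9.04 in lal+/+ cells. The log2 fold change was 0.00, and it was 0.59 with a common median. Tapbpl, the tapasin-related editor TAPBPR, read 6.93 and 6.60 in lal-/- cells, against 6.57 and 6.39 in lal+/+ cells (log2 fold change 0.28, adjusted p = 0.229 from limma). The arrays of Calr overlapped and those of Tapbpl did not, and the lal+/+ mean of Tapbpl lay below the level of silent genes.

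Of 21 measured genes of interferon signalling and class I transcription, 1 was called higher and 1 lower, with a median of 0.20. With a common median 4 were called higher and 1 lower (median 0.40), and on the values as deposited 3 higher and 1 lower (median 0.22). Nlrc5, the transactivator of class I genes, read 9.14 and 9.05 in lal-/- cells, against 10.38 and 11.08 in lal+/+ cells on its brightest probe set, and fell by 1.63 on the log2 scale (standard error 0.22, adjusted p = 0.00192 from limma). The gene has 19 probe sets, of which 3 were called lower, 0 higher and 16 not, with a median log2 fold change of -0.27 and a range of -1.63 to 0.34. Their mean was not called (-0.34, adjusted p = 0.125 from limma), so the call depends on which probe set stands for the gene. Nfyb, a subunit of the factor NF-Y that binds the Y box of class I and class II promoters, read 10.19 and 10.19 in lal-/- cells, against 8.66 and 8.56 in lal+/+ cells (log2 fold change 1.58, adjusted p = 0.000209 from limma). Irf1, the interferon regulatory factor that binds the ISRE of class I genes, read 8.18 and 8.23 in lal-/- cells, against 8.52 and 8.23 in lal+/+ cells. It was not called (-0.17, adjusted p = 0.429 from limma), and its value was 0.31 with a common median and 0.13 on the values as deposited. These are values of its brightest probe set. Its other probe set gave -0.47 after quantile normalization (adjusted p = 0.0967 from limma) and was not called.

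The class II pathway is given beside class I because both have NF-Y and RFX as promoter factors and both lie largely in the H2 complex. Of its 9 measured genes, 8 fell and 0 rose, with a median of -2.42. 5 of the 9 lay below the level of silent genes in lal-/- cells, and 0 of 9 did in lal+/+ cells, and with these 5 at their bound the median was -2.31. H2-Aa, a class II alpha chain, read 7.21 and 7.24 in lal-/- cells, against 11.64 and 11.65 in lal+/+ cells, and fell by 4.42 on the log2 scale (adjusted p = 1.91e-05 from limma). Cd74, the invariant chain, read 5.87 and 6.36 in lal-/- cells, against 10.66 and 10.39 in lal+/+ cells. With its lal-/- mean below the level of silent genes, it was at least 18.8-fold lower (adjusted p = 4.59e-05 from limma). H2-Ea, another alpha chain, read 5.73 and 6.0 in lal-/- cells, against 10.23 and 9.89 in lal+/+ cells. For the same reason it is given as at least 13.6-fold lower (adjusted p = 3.17e-05 from limma). The gene that missed the threshold was Ciita, the class II transactivator, at 6.18 and 6.23 in lal-/- cells, against 6.76 and 7.20 in lal+/+ cells (adjusted p = 0.0138 from limma), also below that level in lal-/- cells. B cells, monocytes and macrophages are class II-bearing cells, and their markers fell on the same arrays, as given above. Their part in the class II result was not tested.

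**Figure D3:**
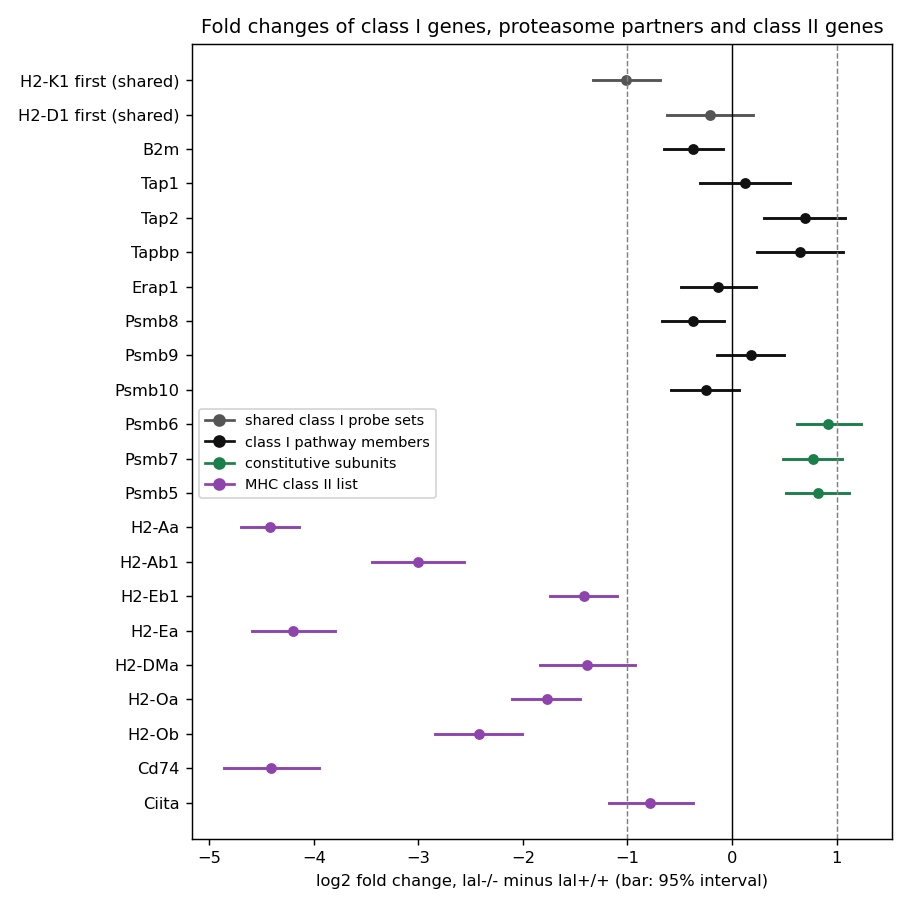
Log2 fold change of lal-/- over lal+/+ cells (x axis) with its 95% interval (bars) for the shared class I probe sets, the 8 class I pathway genes, the constitutive proteasome subunits and the MHC class II list. Dashed lines mark a 2-fold change in each direction. Class I pathway genes lie between -0.37 and 0.70, the constitutive subunits between 0.77 and 0.92, and class II genes between -4.42 and -0.78, where 5 of the 9 class II points are fitted values of genes below the level of silent genes in lal-/- cells.

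**Figure D4:**
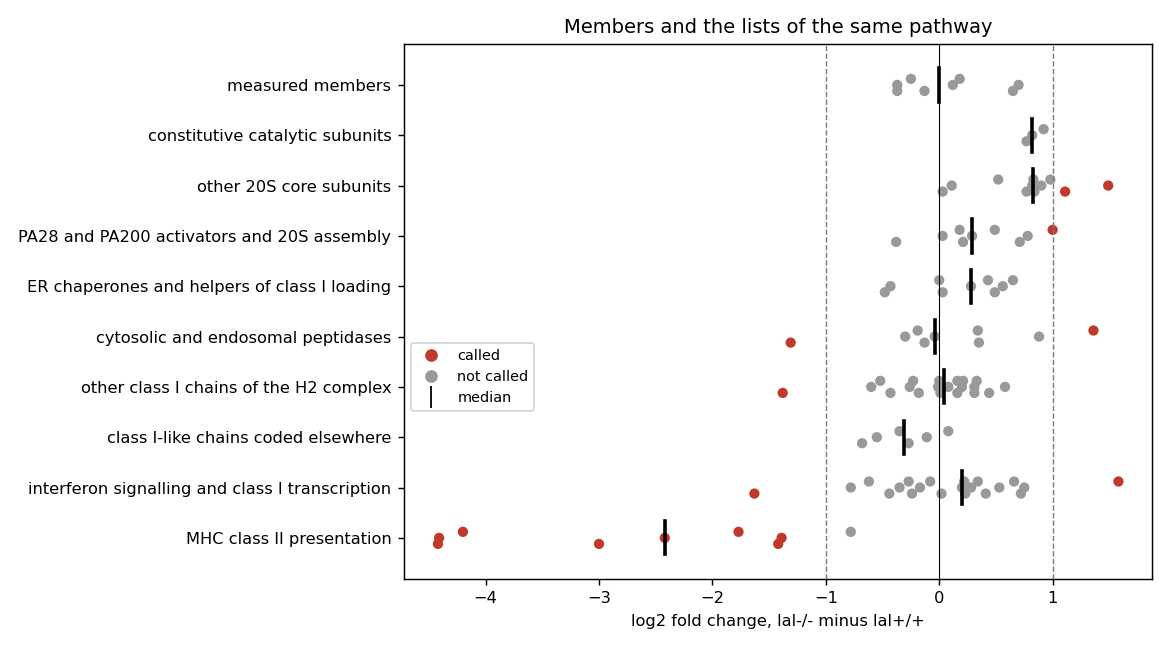
Log2 fold change of lal-/- over lal+/+ cells (x axis) for each gene of the 8 measured members and of 9 lists of the same pathways, with called genes in red, genes not called in grey and the median of each list as a bar. Dashed lines mark a 2-fold change. The proteasome core lists have medians of 0.82 and 0.83, the members 0.00 and the class II list -2.42.

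The direction of several small differences depended on how the arrays were scaled. The median over all genes was 0.08 after quantile normalization, 0.12 with a common median and -0.05 on the values as deposited. Among the 8 genes, B2m was negative (-0.37, -0.21 and -0.39 in this order) and Tap1, Tap2, Tapbp and Psmb9 were positive under all 3 scalings. Erap1, Psmb8 and Psmb10 changed sign between scalings. Tap2 ranged between 0.70 and 0.93 and Tapbp between 0.65 and 0.92, so neither reached 2-fold under any of them. Psmb9 ranged between 0.18 and 0.72.

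**Figure D5:**
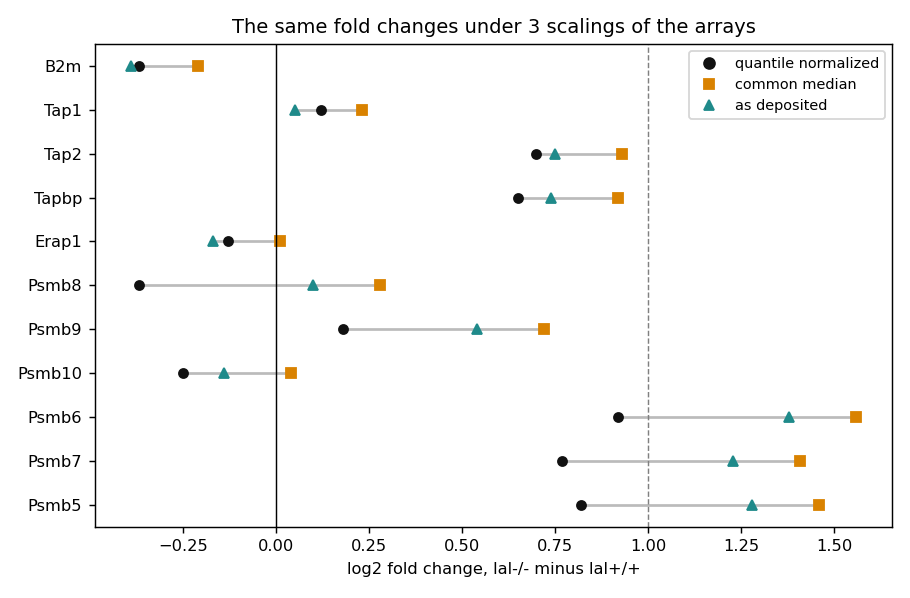
Log2 fold change of lal-/- over lal+/+ cells (x axis) for the 8 class I pathway genes and the 3 constitutive subunits after quantile normalization (circles), with a common median of the arrays (squares) and on the values as deposited (triangles). The dashed line marks a 2-fold change. Erap1, Psmb8 and Psmb10 lie on both sides of 0, and the constitutive subunits pass the dashed line under the other 2 scalings.

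The pattern of Tap2, the gene of the 8 with the largest fold change, was compared with those of all other genes by the Euclidean distance between mean-centred log2 values over the 4 arrays. The 5 closest were Zfp865 (0.0276), Sdhaf2 (0.0427), Zfyve27 (0.0464), Vti1b (0.0558) and Rps6ka5 (0.0565), with log2 fold changes of 0.67 to 0.73, near the 0.70 of Tap2. Zfp865 lay below the level of silent genes in both genotypes. With 4 arrays such a likeness is a description of these values only.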

How the data were processed

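Ly6G+ bone marrow cells were measured on 4 Affymetrix Mouse Gene 1.0 ST arrays, 2 lal-/- and 2 lal+/+. The deposited values are log2 expression values, which the authors made by RMA in Partek Genomics Suite. The labels name GCOS 1.1, and they and the methods name different labelling kits. The sources used here name no genome build. Arrays limit precision by their number.

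Because deposited medians differed by 0.208 (6.15 to 6.36), over the 0.1 allowed, the arrays were quantile normalized. The medians went with genotype, at 6.15 on both lal-/- arrays, against 6.30 and 6.36 on the lal+/+ arrays. Scaling therefore removed a difference between the genotypes, and whether its source was technical or lay in the cells cannot be told apart. limma 3.58.1 in R 4.3.3 was fitted with genotype as the term, with adjustment by the method of Benjamini and Hochberg across 21789 probe sets naming 1 gene, or over all 35557 for probe sets naming several. The brightest probe set stood for a gene. Calls needed an adjusted p under 0.05 together with a 2-fold difference, the methods' thresholds. With 1 tissue, the methods' tissue term was left out. The fit was tested on simulated data. Symbols of 21698 probe sets were updated, 91 were kept, and 12147 probe sets were not listed with a gene.

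The members and lists were chosen with earlier results of these data known. Named genes were the members, up to 3 called genes per list and direction, a fixed group taken whatever their result, and the 5 genes most like the member of largest change. Summed levels are sums of linear values (2 to the power of the log2 value). Alternatives were other scalings, a filter on low values, other adjustments and variance models, a replicate block, other thresholds, the mean of probe sets and leaving out each array. A crossed block, variances moderated over all probe sets, leaving out arrays for shared probe sets, the looser ISRE core and the GC box were added after seeing the data. For a named gene below the level of silent genes in 1 genotype, the fold was set against that level as a bound.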

Additional observations from a re-analysis of the deposited data

How the results depend on the processing

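Of 120 values of the 8 genes under the alternatives, 112 kept their direction and call, 6 reversed, 2 became stronger and 0 weaker. A direction could change only under the other scalings or with an array left out. The other alternatives leave these fold changes as they are, and there a call could come only without the fold threshold. The count of 112 therefore includes many values that could not differ. Reversed with a common median were Erap1 (0.01), Psmb8 (0.28) and Psmb10 (0.04), on the values as deposited Psmb8 (0.10), without lal+/+ replicate 1 Erap1 (0.05), and without lal+/+ replicate 2 Tap1 (-0.12). Across the arrays left out, Tap1 ranged between -0.12 and 0.36 and Erap1 between -0.30 and 0.05. The H2-D1-first probe set became 0.46 with a common median and 0.28 as deposited. The cause was not tested. The median of the 8 genes was 0.25 with a common median and between -0.21 and 0.17 when each array was left out. Without a fold threshold 2 genes were called higher. Leaving out each array gave 0 calls in each direction. With the adjustment or the variances taken over all probe sets, and with the ordinary linear model, 0 of the 8 had an adjusted p under 0.05. An unadjusted p under 0.05 was held there by 4, 4 and 2 of them. In the reported fit 2 of the 8 had an adjusted p under 0.05, against 3 with a common median and as deposited, and 4 with the filter on low values and with the intensity trend and robust variances, which gave an adjusted p of 6.58e-05 for B2m and 0.0151 for Psmb8 from limma, still short of 2-fold.

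Over all genes 1508 were higher and 646 lower, so 70% of calls were higher. The split was 2619 and 467 (84.9%) with a common median, 2013 and 633 (76.1%) as deposited, and 3938 and 1963 without a fold threshold. The ordinary linear model made 0 calls, with 5691 genes at an unadjusted p under 0.05. The replicate numbers pair nothing that the labels state, and same-numbered arrays deviated with a correlation of -0.175. Blocks balanced over the genotypes leave each fold change as it is, so the median of the 8 genes had to stay 0.00. No gene short of 2-fold could be called either. With the replicate block 0 of the 8 were called higher and 0 lower, and all genes gave 1508 and 646. The crossed replicate block, added after seeing the data, also gave 0 and 0, and 1508 and 646. The 2 arrays of a genotype limit every p-value here, and where 1 array was left out the lone array was assumed to vary like the others.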
